A study of Homo sapiens with 4 samples.

Results

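The receptor tyrosine kinases of the ERBB and FGFR families and the EGFR ligands were examined in UM-UC-3 cells, an established human bladder cancer cell line. The members were 10 genes named by symbol, namely the receptors EGFR, ERBB2, ERBB3, FGFR1, FGFR3 and FGFR4 and the ligands AREG, EREG, HBEGF and TGFA. AREG matched no row and is not analysed here, so 9 of the 10 members were followed, among 24039 genes listed in all 4 tables. Cells were transfected at 75 nM for 48 h with a control siRNA or with siRNAs against lncRNA-LBCS (si-lncRNA-LBCS), hnRNPK (si-hnRNPK) or PTBP1 (si-PTBP1), and RNA from each condition was sequenced as 1 library of 100-base paired-end reads. For each target 2 different siRNAs were used on the same cells, so no value separates them. All libraries came from the same parental line and carried a transfected siRNA, the control included. With 1 library per condition no difference below has a replicate check, and no p-value is given.

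ERBB receptors sit in the cell membrane and signal as pairs. EGFR binds amphiregulin, epiregulin, HB-EGF and TGF-alpha, which are made as membrane-anchored precursors and released by proteases called sheddases. ERBB2 has no known ligand and acts as the partner of the others, and ERBB3 has a weak kinase and depends on such a partner. FGFRs bind fibroblast growth factors together with heparan sulphate chains. Both families pass their signal through the RAS-MAP kinase and PI3 kinase routes, and altered ERBB2 and FGFR3 are well known in urothelial cancer. hnRNPK and PTBP1 are RNA-binding proteins that prefer C-rich and pyrimidine-rich sequence, respectively, and hnRNPK also binds C-rich single-stranded DNA.

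The sequences of the siRNAs are shown because each condition rests on them and because bases 2 to 8 of a guide strand can pair with other transcripts. Each is the sense strand of 19 bases without its overhang, 5′ to 3′, and capitals mark the part that has the sequence of a seed match.
control siRNA: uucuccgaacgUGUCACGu
si-lncRNA-LBCS siRNA-1: gcugcucauuuGUCUGAUc
si-lncRNA-LBCS siRNA-2: ggugguagucaACACAAAu
si-hnRNPK siRNA-1: ggguuguagagUGCAUAAa
si-hnRNPK siRNA-2: gccuccaucuaGAAGAGAu
si-PTBP1 siRNA-1: gccucaacgucAAGUACAa
si-PTBP1 siRNA-2: cccucauugacCUGCACAa

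Seed matches were looked up in the 3′ UTR of the transcript with the longest coding sequence (GENCODE v29, GRCh38) for all 9 members and for 11919 genes in all. EREG held 3 matches to si-hnRNPK siRNA-1, a seed found in 9.46% of all genes, and 1 match to si-hnRNPK siRNA-2, whose seed was found in 16.3% of genes. EGFR held 1 match to si-hnRNPK siRNA-2, 2 matches to si-lncRNA-LBCS siRNA-2 and 1 match to si-PTBP1 siRNA-2, in a 3′ UTR of 6011 bases. ERBB3 held 2 matches to si-lncRNA-LBCS siRNA-2 and 1 match to si-PTBP1 siRNA-2, and FGFR1 held 1 match to si-lncRNA-LBCS siRNA-2. These seeds were found in 15.3% (si-lncRNA-LBCS siRNA-2) and 12.4% (si-PTBP1 siRNA-2) of all genes. The control siRNA, whose seed was found in 2.67% of all genes, matched no member. Neither did si-lncRNA-LBCS siRNA-1 (7.88% of all genes) nor si-PTBP1 siRNA-1 (10.7%). HBEGF, ERBB2, FGFR3, FGFR4 and TGFA held no match to any siRNA. The stretch searched was short for some of them, at 87 bases for TGFA, 468 for FGFR4 and 618 for ERBB2. Sites in longer 3′ UTRs of other transcripts of these genes would have been missed. A match is a shared stretch of letters, and whether any of these sites was used was not tested. Of the 4 matches to the si-hnRNPK seeds in EREG, the first in the 3′ UTR for each siRNA is printed, with the 1 match in EGFR and with the seed match in capitals, because EREG was called higher after si-hnRNPK while EGFR was lower there; the other 2 EREG matches are not printed. The printed EREG sites lie on the plus strand at chr4:74386122-74386151 and chr4:74386049-74386078 and the EGFR site on the plus strand at chr7:55209982-55210011 (GRCh38).
EREG, siRNA-1 match: ttttgggctatTGCATAAggagccactgct
EREG, siRNA-2 match: tttattttttgGAAGAGAcaaagatttctt
EGFR, siRNA-2 match: gtcatggtgaaGAAGAGAagcatcgttttt

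The levels of the targeted genes were read first, in CPM, the reads of a gene per 1000000 reads of its library. HNRNPK stood at 783.1 CPM in control and 187.8 CPM after si-hnRNPK, a ratio of 0.240 with a 95% exact (Clopper-Pearson) interval of 0.235 to 0.245. PTBP1 stood at 280.0 CPM in control and 89.7 CPM after si-PTBP1. The lncRNA-LBCS gene (LNC-LBCS) stood at 1.79 CPM in control and 1.47 CPM under the label si-lncRNA-LBCS (the LBCS-labelled library from here on). The interval of the ratio between these libraries, 0.619 to 1.08, includes 1. LNC-LBCS was higher than in control elsewhere, at 3.43 CPM after si-hnRNPK and 3.82 CPM after si-PTBP1. The ratios to control there were 1.91 and 2.13, with intervals that leave out 1. Why LNC-LBCS was higher in those libraries was not tested. The libraries held 54301152 to 70232674 reads. Of the urothelial markers, KRT8 and KRT18 were at 63.0 and 121.4 CPM in control, while UPK1A, UPK1B, UPK2, KRT20, GATA3 and KRT19 were all at or below 0.261 CPM. In all, 5 of the 12 urothelial markers reached 1 CPM there, and their sum ran from 154.8 to 219.8 CPM over the libraries. The 4 mesenchymal markers summed to 1666 to 2572 CPM, highest in control, where VIM at 2343 CPM made up most of the sum. In the si-hnRNPK, LBCS-labelled and si-PTBP1 libraries VIM was lower, at 1700, 1417 and 1647 CPM. FN1 was at 57.2 CPM in control and higher there, at 188.7, 78.0 and 211.1 CPM. CDH2 was at 47.1 CPM in control and also higher, at 78.6, 66.9 and 71.7 CPM. ZEB1 was at 124.4 CPM in control and at 122.3, 103.4 and 148.9 CPM. The basal urothelial markers summed to 495.7 CPM in control and 227.9 CPM after si-hnRNPK, nearly all from CD44. The scarce basal markers TP63 and KRT5 went the other way. TP63 was read 21 times in control and 136 times after si-hnRNPK, a ratio of 7.32 in CPM, and KRT5 was read 2 and 9 times. The part of these markers in the results below was not tested. The summed markers of white blood cells, endothelial cells and fibroblasts each stayed at or below 0.129 CPM in every library. Intervals cover counting error only, since sequenced fragments are not independent molecules and no second culture was measured.

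Levels were compared between genes only after division by the length of all annotated exons of a gene. HBEGF, at 22.9 CPM per kb in control, was the most abundant member and exceeded 88.2% of the 14150 genes that reached 1 CPM in at least 1 library. FGFR1 followed at 11.9 CPM per kb, EGFR at 10.3, EREG at 7.49 and ERBB2 at 3.25 CPM per kb. FGFR4, ERBB3, TGFA and FGFR3 lay between 0.329 and 0.560 CPM per kb. The members thus fell into 5 expressed at several CPM per kb and 4 expressed below 1 CPM per kb, with FGFR1 as the leading FGF receptor and EGFR as the leading ERBB receptor. Dividing by the longest transcript instead gave 28.9 CPM per kb for HBEGF, 26.4 for FGFR1 and 13.1 for EGFR and kept the order of the first 5.

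**Figure D1:**
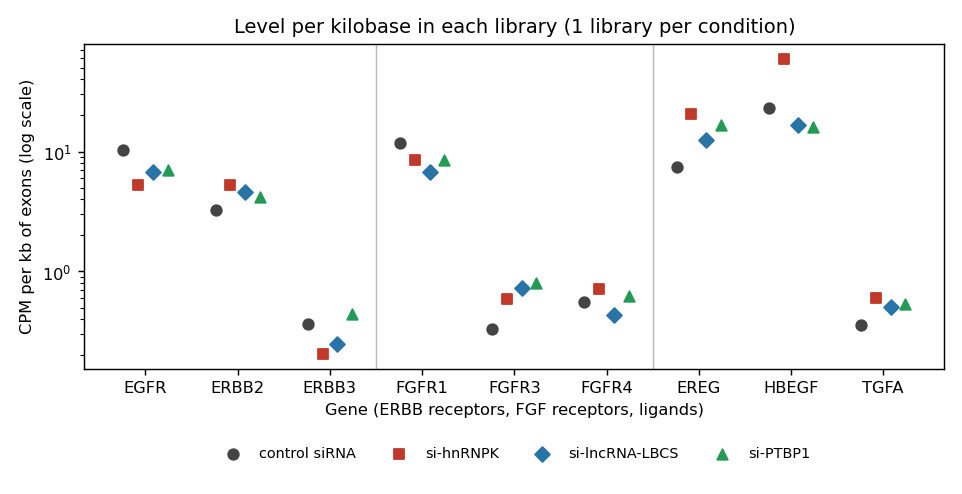
Level of each of the 9 members in each of the 4 libraries, in CPM per kb of annotated exons on a log axis; each point is 1 library and there are no error bars. HBEGF after si-hnRNPK is the highest point, at 59.4 CPM per kb, and the 4 low members stay below 1 CPM per kb in all 4 libraries.

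A gene was called changed when its difference in log2(CPM + 1) from the control library reached 1 in size, over genes that reached 1 CPM in either of the 2 libraries. All 9 listed members passed that filter in all 3 comparisons. After si-hnRNPK 2 members, EREG and HBEGF, were called higher and none lower, beside 3.55% of the 13672 genes tested called higher and 3.93% called lower. In the LBCS-labelled library no member was called, beside 0.378% of 13492 genes called higher and 1.01% called lower. After si-PTBP1 EREG was called higher and no member lower, beside 2.92% of 13855 genes called higher and 0.613% called lower. Differences are on the log2(CPM + 1) scale, which understates the change of genes near 1 CPM. The median difference over all genes tested was -0.11 after si-hnRNPK, -0.01 in the LBCS-labelled library and 0.12 after si-PTBP1. Over the 9 members the medians were 0.51, -0.26 and 0.22, with 6, 4 and 6 members above the control. The 3 comparisons share the control library, so that any deviation of that library enters all of them. In bulk RNA, fewer cells that express a gene and less RNA per cell cannot be told apart.

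**Figure D2:**
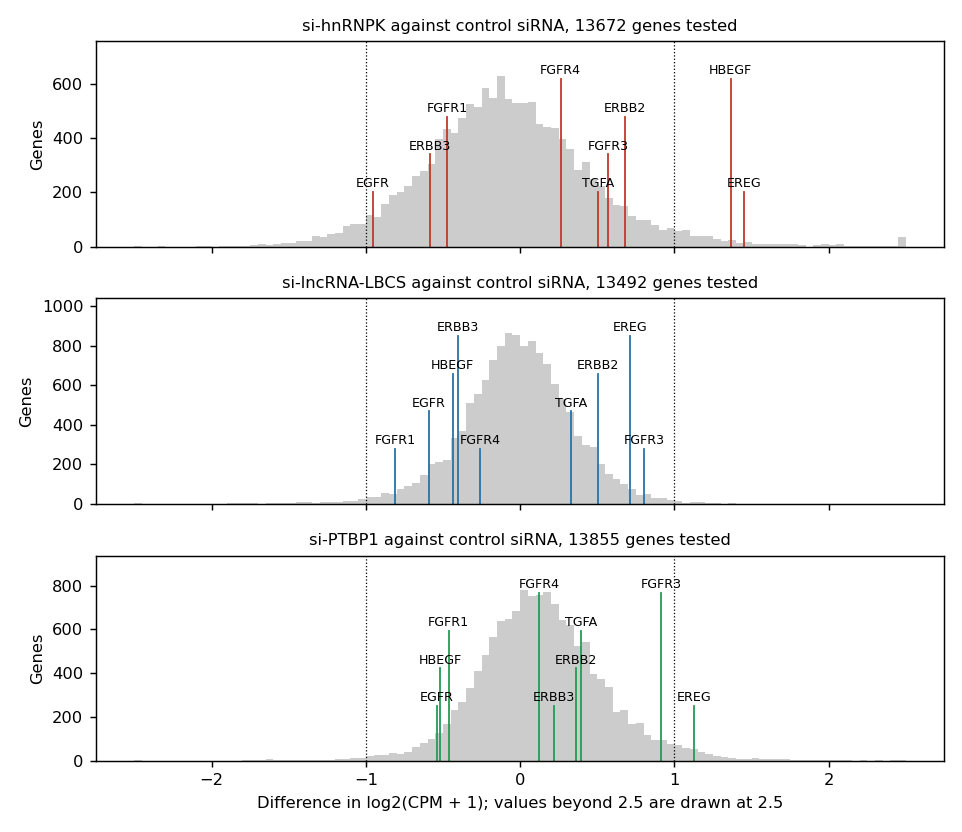
Histograms of the difference in log2(CPM + 1) from the control library for all genes tested in each comparison (grey, number of genes on the vertical axis), with each member marked by a labelled line whose height has no meaning; dotted lines mark the threshold of 1. EREG and HBEGF lie beyond the threshold in the si-hnRNPK panel, EREG alone in the si-PTBP1 panel, and no member in the si-lncRNA-LBCS panel.

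Among the ligands, EREG (ENSG00000124882, chr4:74365143-74388751 on the plus strand, GENCODE v29), which encodes epiregulin, was higher than in control in the other 3 libraries. Its level was 42.8 CPM in control, 118.6 after si-hnRNPK, 70.9 in the LBCS-labelled library and 94.9 CPM after si-PTBP1. The control library was the lowest and the si-hnRNPK library the highest, and every neighbouring pair in that order differed beyond counting error. The ratio to the control was 2.77 (2.65 to 2.90) after si-hnRNPK, 1.65 (1.58 to 1.74) in the LBCS-labelled library and 2.22 (2.11 to 2.32) after si-PTBP1. On the log2(CPM + 1) scale the differences were 1.45, 0.71 and 1.13, and 1.17%, 2.06% and 1.74% of all genes tested had a higher difference. EREG was thus in the upper end of every comparison, though past the threshold in only 2 of them. Against the geometric mean of the other 3 libraries in place of the control alone, the differences were 0.83, -0.15 and 0.41, so that neither call held and the direction turned in the LBCS-labelled library.

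HBEGF (ENSG00000113070, chr5:140332843-140346631 on the minus strand), which encodes HB-EGF, a ligand of EGFR that also binds heparin, was above the control after si-hnRNPK and below it in the LBCS-labelled and si-PTBP1 libraries. It stood at 69.0 CPM in control, 179.4 after si-hnRNPK, 50.7 in the LBCS-labelled library and 47.9 CPM after si-PTBP1. The si-hnRNPK library thus stood apart from the other 3, which lay between 47.9 and 69.0 CPM. The ratio to control was 2.60 (2.51 to 2.69) after si-hnRNPK, against 0.735 (0.702 to 0.768) in the LBCS-labelled library and 0.694 (0.661 to 0.729) after si-PTBP1. The si-hnRNPK library exceeded the si-PTBP1 library 3.74-fold (3.59 to 3.91) and the LBCS-labelled library 3.54-fold (3.40 to 3.68). Only 1.39% of genes had a higher difference than HBEGF (1.37) after si-hnRNPK. Against the geometric mean of the other 3 libraries that difference was 1.68.

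TGFA (ENSG00000163235, chr2:70447280-70554193 on the minus strand), which encodes TGF-alpha, was a scarce transcript. It was read 110 times in control, 161 times after si-hnRNPK, 176 times in the LBCS-labelled library and 150 times after si-PTBP1, or 1.79, 2.96, 2.51 and 2.68 CPM. The control library was the lowest, and the other 3 libraries did not differ from each other beyond counting error. Its ratios to control were 1.65 (1.29 to 2.13), 1.40 (1.10 to 1.79) and 1.49 (1.16 to 1.93), and no difference reached the threshold.

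Among the ERBB receptors, EGFR (ENSG00000146648, chr7:55019021-55211628 on the plus strand), the receptor of these 3 ligands, was lower than in control in the other 3 libraries. It stood at 129.1 CPM in control, 66.1 after si-hnRNPK, 85.2 in the LBCS-labelled library and 88.5 CPM after si-PTBP1. The control library was the highest and the si-hnRNPK library the lowest, while the si-PTBP1 library and the LBCS-labelled library differed by less than counting error, with a ratio of 1.04 (0.999 to 1.08). The ratios to control were 0.512 (0.492 to 0.533), 0.660 (0.638 to 0.683) and 0.685 (0.661 to 0.710). The differences of -0.95, -0.59 and -0.54 stayed inside the threshold, after si-hnRNPK by a small margin. Against the geometric mean of the other 3 libraries they were -0.58, -0.095 and -0.024. After si-hnRNPK EGFR was therefore lower while its ligands EREG and HBEGF were higher. EGFR-AS1, an antisense gene that overlaps EGFR, was listed at 2.0, 0.552, 0.626 and 0.927 CPM in the same order of libraries. Whether reads were counted by strand is not given in the sources used here, so reads of the pair cannot be told apart where they overlap.

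ERBB2 (ENSG00000141736, chr17:39687914-39730426 on the plus strand), the ligandless partner receptor, went the other way from EGFR. It stood at 33.5 CPM in control, 54.2 after si-hnRNPK, 47.9 in the LBCS-labelled library and 43.4 CPM after si-PTBP1. The control library was the lowest, and each neighbouring pair in the order differed beyond counting error. The ratios were 1.62 (1.53 to 1.71), 1.43 (1.35 to 1.51) and 1.29 (1.22 to 1.37), with differences of 0.68, 0.50 and 0.36, none past the threshold; the last was -0.03 against the geometric mean of the other 3 libraries. ERBB2 overlaps MIEN1 and PGAP3 on the other strand, with the same limit on strand.

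ERBB3 (ENSG00000065361, chr12:56076799-56103505 on the plus strand), the neuregulin receptor, was scarce. It was read 202, 101, 158 and 224 times in the control, si-hnRNPK, LBCS-labelled and si-PTBP1 libraries, or 3.29, 1.86, 2.25 and 4.0 CPM. The si-hnRNPK library and the LBCS-labelled library lay below the control and did not differ from each other beyond counting error. The ratios to control were 0.565 (0.441 to 0.721), 0.683 (0.552 to 0.846) and 1.21 (0.999 to 1.48), and the last interval includes 1. At this depth no difference between the si-PTBP1 and control libraries was detectable for ERBB3. ERBB3 overlaps AC034102.2, a protein-coding gene on the same strand, and how reads in the overlap were counted is not given in the sources used here.

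Among the FGF receptors, FGFR1 (ENSG00000077782, chr8:38400215-38468834 on the minus strand) was the abundant one and was lower than in control in the other 3 libraries. It stood at 164.2 CPM in control, 118.0 after si-hnRNPK, 93.1 in the LBCS-labelled library and 118.8 CPM after si-PTBP1. The LBCS-labelled library was the lowest, and the si-hnRNPK and si-PTBP1 libraries were level within counting error, with a ratio of 1.01 (0.973 to 1.04). The ratios to control were 0.719 (0.697 to 0.742), 0.567 (0.550 to 0.585) and 0.724 (0.701 to 0.746). In the LBCS-labelled library the difference was -0.81, and 2.13% of genes had a lower one. Against the geometric mean of the other 3 libraries the FGFR1 differences were -0.048, -0.50 and -0.035, with those after si-hnRNPK and si-PTBP1 close to 0. FGFR1 overlaps LETM2 and antisense genes.

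FGFR3 (ENSG00000068078, chr4:1793293-1808872 on the plus strand), the FGF receptor most often altered in bladder tumours, was near the filter in control. It was read 98 times there, 155 times after si-hnRNPK, 248 times in the LBCS-labelled library and 218 times after si-PTBP1, or 1.60, 2.85, 3.53 and 3.89 CPM. The control library was the lowest, and the si-PTBP1 library and the LBCS-labelled library did not differ beyond counting error. The ratios to control were 1.79 (1.38 to 2.33), 2.21 (1.74 to 2.82) and 2.44 (1.91 to 3.12), but on the log2(CPM + 1) scale the differences were 0.57, 0.80 and 0.91 and missed the threshold. With a pseudocount of 0.1 CPM the last 2 were 1.10 and 1.23, past the threshold. Against the geometric mean of the other 3 libraries the difference after si-hnRNPK was -0.0021.

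FGFR4 (ENSG00000160867, chr5:177086886-177098144 on the plus strand), the FGF receptor known for its pairing with beta-klotho in liver, was scarce and stayed close to the control. It was read 166, 187, 147 and 170 times in the control, si-hnRNPK, si-lncRNA-LBCS and si-PTBP1 libraries, or 2.70, 3.44, 2.09 and 3.03 CPM. The ratios to control were 1.27 (1.03 to 1.58), 0.774 (0.616 to 0.972) and 1.12 (0.900 to 1.40), and the si-PTBP1 library differed from neither the control nor the si-hnRNPK library beyond counting error.

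**Figure D3:**
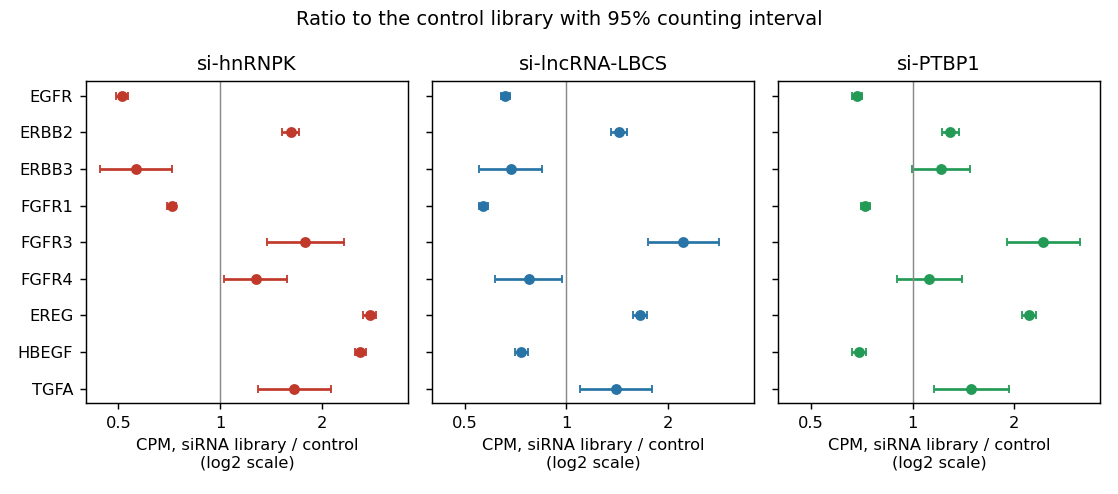
Ratio of CPM in each siRNA-treated library to the control library for the 9 members, on a log2 axis, with 95% exact (Clopper-Pearson) intervals that cover counting error only; the vertical line marks 1. EREG lies to the right of 1 and EGFR and FGFR1 to the left in all 3 panels, while HBEGF lies at 2.60 in the si-hnRNPK panel and below 1 in the others.

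Set side by side, EGFR and FGFR1 were highest in control, and ERBB2, FGFR3, EREG and TGFA were lowest there. Over the 14150 expressed genes the control library was the highest of the 4 for 21.4% and the lowest for 24.6%. The interval of the ratio left out 1 for all 9 members after si-hnRNPK and the LBCS-labelled library and for 7 members after si-PTBP1, where ERBB3 and FGFR4 were the exceptions. At these depths an interval that leaves out 1 says only that the 2 libraries differed. The same share over all genes tested is not given here, so these counts set the members apart from no other genes. After subtraction of the scaling shift between libraries, found as a median of ratios over 12362 genes, the differences of EREG were 1.56, 0.72 and 1.00, those of HBEGF 1.48, -0.43 and -0.64, and those of EGFR -0.84, -0.58 and -0.67, in the order si-hnRNPK, si-lncRNA-LBCS and si-PTBP1. Among 9444 genes that reached 10 CPM in any library, those whose 3 differences lay nearest to EREG by Euclidean distance were SHC2 (0.167) and FHL2 (0.200), and those nearest to HBEGF were SPOCD1 (0.273) and OAS3 (0.286).

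The promoters of EREG, HBEGF and EGFR are shown because EREG and HBEGF were higher and EGFR lower in the library with reduced HNRNPK, and because hnRNPK is known to bind C-rich promoter DNA. These libraries hold no measure of binding, and whether hnRNPK acts at any of these promoters was not tested. Each runs from 250 bases before to 50 bases after the start of a RefSeq transcript (GRCh38.p14), at chr4:74364895-74365194 on the plus strand for EREG, chr5:140346554-140346853 on the minus strand for HBEGF and chr7:55018767-55019066 on the plus strand for EGFR. Capitals mark the letters CCCTCC, the core of a C-rich element, on the printed strand, its complement GGAGGG, which is the same element on the other strand, and TATAAA, the TATA box.
EREG promoter: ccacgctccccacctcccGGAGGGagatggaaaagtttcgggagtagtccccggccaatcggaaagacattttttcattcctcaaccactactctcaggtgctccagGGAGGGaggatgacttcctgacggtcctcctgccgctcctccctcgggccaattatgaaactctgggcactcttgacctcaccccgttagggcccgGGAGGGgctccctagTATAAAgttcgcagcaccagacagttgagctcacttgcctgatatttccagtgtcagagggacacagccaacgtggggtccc
HBEGF promoter: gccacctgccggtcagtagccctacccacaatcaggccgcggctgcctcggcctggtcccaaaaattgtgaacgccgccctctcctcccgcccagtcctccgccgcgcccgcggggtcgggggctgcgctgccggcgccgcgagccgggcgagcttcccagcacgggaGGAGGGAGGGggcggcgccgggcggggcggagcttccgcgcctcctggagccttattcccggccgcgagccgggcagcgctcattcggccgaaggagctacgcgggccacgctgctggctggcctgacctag
EGFR promoter: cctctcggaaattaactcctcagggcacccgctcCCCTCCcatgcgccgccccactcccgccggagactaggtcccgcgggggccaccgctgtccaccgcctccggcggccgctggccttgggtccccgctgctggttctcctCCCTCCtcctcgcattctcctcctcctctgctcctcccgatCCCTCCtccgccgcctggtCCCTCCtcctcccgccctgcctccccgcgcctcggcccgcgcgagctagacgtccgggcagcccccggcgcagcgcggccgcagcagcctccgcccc

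The EREG promoter held CCCTCC 3 times on the other strand, TATAAA once and CCAAT 2 times, the HBEGF promoter held CCCTCC 2 times on the other strand with an overlap between the matches, and this EGFR promoter held it 4 times on the printed strand. Of 35116 RefSeq promoters of the same length, searched on both strands, 45.7% held CCCTCC, 11.5% held TATAAA and 34.6% held CCAAT. At least 1 promoter was matched for 7 of the 9 listed members, with 10 promoters in all, and 6 of these 10 held CCCTCC. The second EGFR promoter (chr7:55109589-55109888) held no CCCTCC and 2 TATAAA. Of the TGFA promoters, 1 held neither and the other held CCCTCC 3 times. The FGFR4 promoters held CCCTCC 2 times and 1 time, so the element was not limited to EREG, HBEGF and EGFR. The ERBB2 promoter and the FGFR3 promoter held no CCCTCC, and the FGFR3 promoter had the highest GC content, at 86.3% beside a median of 58.7% over all promoters. Of the promoters with CCCTCC, those of EGFR, HBEGF and TGFA had 75.3%, 75.0% and 75.3% GC. The FGFR4 promoters had 78.7% and 57.3% and the EREG promoter 57.7%, beside an upper quartile of 68% over all promoters. The remaining promoters of ERBB2, EGFR and TGFA had 60.7%, 42% and 63%. The share of 45.7% was not adjusted for GC content.

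Other genes of the pathway were read from 8 lists of 113 genes, of which 94 were listed in all 4 tables. After si-hnRNPK 6 of 82 tested were called higher and 6 lower, or 9 and 3 under median-of-ratios scaling. In the LBCS-labelled library 2 of 81 were called higher and 5 lower, and after si-PTBP1 7 of 83 higher and 1 lower, beside the shares over all genes given above. The medians over these lists were -0.01, -0.10 and 0.16.

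Of the other receptors, ERBB4 is not analysed here, and FGFR2 was close to 0 with 6 reads, or 0.098 CPM, in control. Of the 3 other ERBB ligands tested, the neuregulins NRG1, NRG2 and NRG4, none was called. NRG1, a ligand of ERBB3, stood at 45.7 CPM in control and 75.4 CPM after si-hnRNPK, a difference of 0.71. Among 7 coreceptors and decoys of the FGF system tested, SDC2 and SDC4, heparan sulphate proteoglycans of the cell surface, were called higher. SDC3 had a difference of 0.96 after si-hnRNPK and was called there as well under median-of-ratios scaling. SDC2 was at 16.6 CPM in control and at 36.9, 36.1 and 57.7 CPM in the si-hnRNPK, si-lncRNA-LBCS and si-PTBP1 libraries, past the threshold in all 3. SDC4 was at 200.6 CPM in control and 620.8 CPM after si-hnRNPK, a ratio of 3.09 (3.03 to 3.16), against 222.6 and 200.3 CPM in the others. SDC4 thus shared with HBEGF a high value after si-hnRNPK alone of the 3. Of the FGF ligands, FGF1 was called lower in 2 libraries, from 19.8 CPM in control to 8.57 CPM in the LBCS-labelled library and 5.89 CPM after si-PTBP1, while it was at 23.7 CPM after si-hnRNPK. FGF2 was at 36.5 CPM in control and was not called in any.

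Of 9 tested genes for ligand sheddases and their regulators, ADAM15 was called in 2 libraries, at 38.6 CPM in control and 76.7, 84.4 and 79.0 CPM after si-hnRNPK, in the LBCS-labelled library and after si-PTBP1, the first with a difference of 0.97. Under median-of-ratios scaling ADAM15 was called after si-hnRNPK and no longer after si-PTBP1. ADAM17, the main sheddase of EREG, HBEGF and TGFA, had differences of 0.67, -0.06 and 0.48. None of 22 adaptors and proximal effectors, which include GRB2, SHC1 and PIK3CA, was called in any of the 3 comparisons. SHC1 was closest, with a difference of 0.96 after si-hnRNPK, and was called there, at 1.07, under median-of-ratios scaling. Of 21 feedback inhibitors 4 were called in 1 library each. DUSP6, a phosphatase of ERK, was at 61.5 CPM in control and 141.7 CPM after si-hnRNPK, while SPRY4, an inhibitor of RAS-MAP kinase signalling, was at 32.7 and 15.2 CPM. These 2 feedback genes therefore went in opposite directions in the same library, though SPRY4 was not called under median-of-ratios scaling. IL17RD, an inhibitor of FGF signalling, and PTPRJ, a receptor phosphatase, were higher after si-PTBP1, with differences of 1.43 and 1.14.

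Of the transcriptional targets of these pathways, 3 of 16 were called higher and 5 lower after si-hnRNPK, or 3 and 3 under median-of-ratios scaling. FOS, an immediate early transcription factor, was at 2.56 CPM in control and 19.7 CPM after si-hnRNPK. IER3, another immediate early gene, was at 70.4 and 242.2 CPM, while CCND1, which encodes cyclin D1, was at 1187 and 295.2 CPM. The list was therefore split in that library, with FOS and IER3 above the control and CCND1 below it. Whether any of these genes changed through the receptors was not tested. In the LBCS-labelled library 0 of 15 were called higher and 4 lower, with a list median of -0.80 beside -0.01 over all genes. Among them, named after their values were seen, were FOSL1 (-1.55), PLAUR (-1.19) and LIF (-1.07). FOSL1 was also called lower after si-hnRNPK, at -1.72, and was at -0.87 after si-PTBP1. In those comparisons PLAUR was at -0.57 and -0.32 and LIF at 0.05 and -0.12, none of them called. After si-PTBP1 3 of 16 were called higher, with FOS at 9.97 CPM, and 0 lower, or 2 and 0 under median-of-ratios scaling. The list median was also below that over all genes after si-hnRNPK (-0.28 beside -0.11) and after si-PTBP1 (-0.28 beside 0.12).

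**Figure D4:**
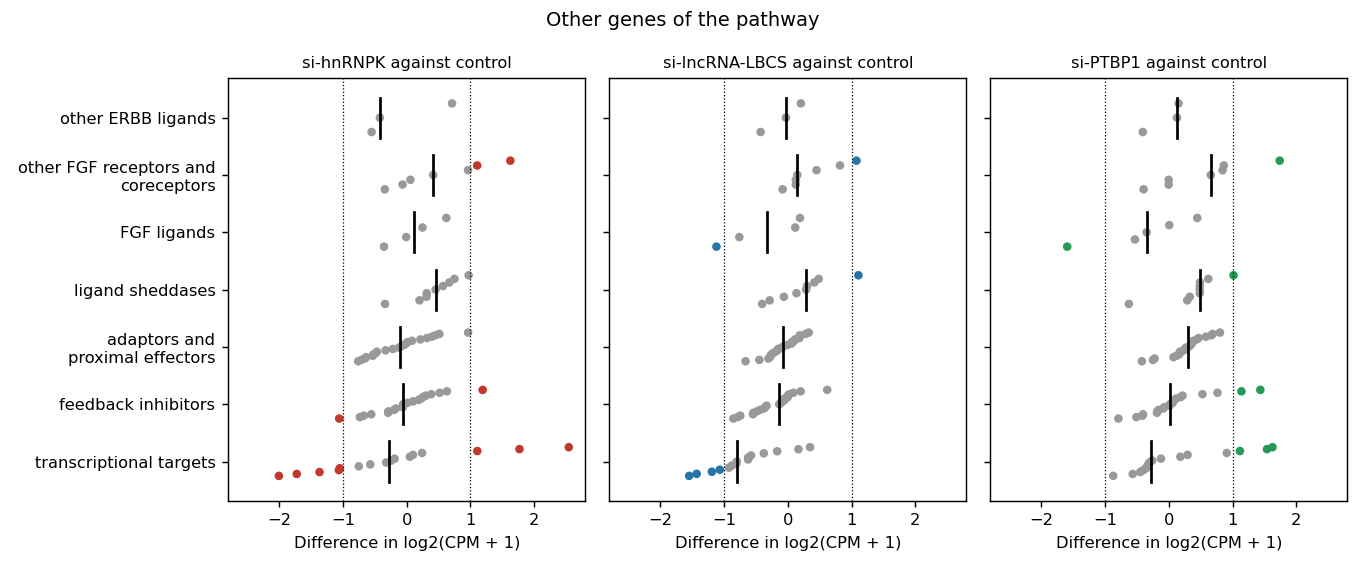
Difference in log2(CPM + 1) from the control library for the other pathway genes tested, by list, in the 3 comparisons; each point is 1 gene, coloured when it reached the threshold of 1 (dotted lines), and the black bar is the median of the list. The adaptors stay inside the threshold in all 3 panels. The transcriptional targets have medians of -0.28, -0.80 and -0.28 in the si-hnRNPK, si-lncRNA-LBCS and si-PTBP1 panels.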

How the data were processed

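Total RNA of UM-UC-3 cells was sequenced in 4 libraries, 1 per condition. The deposited values are CPM per Ensembl gene, the reads of a gene per 1000000 reads of its library, scaled by the authors. The submitters' processing notes name hg19 as genome build; the aligner, counter and annotation are not given in the sources used here. Every value was a whole multiple of the CPM of 1 read (100% of values within 0.01 of a read) except a placeholder for 197 to 393 genes per library without reads, which was set to 0, so whole reads were recovered. A count of 3 reads corresponds to 0.0427 to 0.0552 CPM.

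Symbols, positions and 3′ UTRs came from GENCODE v29 (GRCh38) by gene identifier; no coordinate was converted. Promoters came from RefSeq. Differences were taken in log2(CPM + 1) over genes that reached 1 CPM in either library, with a threshold of 1, in Python 3.11.15 with numpy 2.4.6, pandas 2.3.3 and scipy 1.17.1; the calculation was tested on simulated data. A ratio of reads carries a 95% exact (Clopper-Pearson) interval. With an added exact binomial test of the recovered reads (Benjamini-Hochberg q of at most 0.05), which compares libraries and not conditions, 486 higher and 537 lower calls were kept in the si-hnRNPK comparison, 51 and 136 in the si-lncRNA-LBCS comparison and 404 and 85 in the si-PTBP1 comparison, as without it. From each pathway list, up to 3 called genes with the largest difference at 10 CPM or more were named, or every called gene where there were at most 5. The members, lists and rules were chosen with earlier results of these data known. NRG1, ADAM17, FGFR2, FGF2, SDC3, SHC1, FOSL1, PLAUR and LIF were named outside the rule, after their values were seen. NRG2, NRG4, GRB2 and PIK3CA were also named outside it, without their values. The alternatives were another pseudocount, other filters, a 1.5-fold threshold, median-of-ratios scaling and another reference. The values of 1 gene of the lists are not reported here.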

Additional observations from a re-analysis of the deposited data

How the results depend on the processing

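The count of members called was the same without a filter, with a filter of 5 CPM (which left 5 members), with median-of-ratios scaling and with the added binomial test in all 3 comparisons. A 1.5-fold threshold gave 5 in place of 2 members in the si-hnRNPK comparison, 4 in place of 0 in the si-lncRNA-LBCS comparison and 2 in place of 1 in the si-PTBP1 comparison, and 27, 20 and 20 pathway genes in place of 12, 7 and 8; its lower bar is the cause. Against the geometric mean of the other 3 libraries, 1, 0 and 0 members and 7, 4 and 5 pathway genes were called; the cause was not tested. A pseudocount of 0.1 CPM, which shrinks low values less, gave 1 member (FGFR3) in the si-lncRNA-LBCS comparison and 2 (EREG and FGFR3) in the si-PTBP1 comparison. No member changed sign under the pseudocount, the filters or the scaling, and 3 of 27 differences did against the geometric mean. Over all genes that reference gave 317 higher and 356 lower calls in the si-hnRNPK comparison, 6 and 97 in the si-lncRNA-LBCS comparison and 234 and 68 in the si-PTBP1 comparison, median-of-ratios scaling gave 610 and 374, 54 and 133, and 256 and 132, a pseudocount of 0.1 CPM gave 790 and 995, 165 and 353, and 793 and 173, and the 1.5-fold threshold gave 1352 and 2165, 559 and 774, and 1673 and 432. The sum of AREG and AREGB reads could not be formed. No paired analysis was possible because each condition has 1 library, and for the same reason no library could be left out.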
